A study of Mus musculus with 12 samples.

Results

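The genes described here are 40 mouse cell cycle genes, 20 that act in DNA replication and its control and 20 that act in mitosis. They were taken from a fixed list of symbols, and each had to reach 10 or more counts in at least 3 of the libraries. All 40 passed that rule and were tested, out of 24421 gene symbols in the count table, of which 13281 were tested. The study used KP cells, cultured mouse lung adenocarcinoma cells whose labelled genotype is KrasLSL-G12D/+; Trp53flox/flox in every group. A CRISPR/Cas9 guide was either a control (sgCTRL) or one that targets Bach1 for knockout (sgBACH1), and the siRNA, given for 48 h, was either a control (siCTRL) or one against Fem1b (siFEM1B), before RNA sequencing. The 4 groups are therefore sgCTRL_siCTRL, sgBACH1_siCTRL, sgCTRL_siFEM1B and sgBACH1_siFEM1B, with 3 libraries each, which the submitters call biological replicates. The control and the knockout cells are each named as 1 line, so a difference between those lines and the loss of Bach1 cannot be told apart. Whether the siRNA acted on other transcripts was not tested. FEM1B is a substrate receptor of a cullin-RING ubiquitin ligase and BACH1 is a heme-binding transcription repressor, and the title of the study concerns the degradation of the second through the first.

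Cells prepare to copy their DNA by loading the MCM helicase at replication origins, and then assemble polymerases around the sliding clamp PCNA while enzymes of nucleotide synthesis supply the precursors. Many genes of this machinery are transcribed at the G1/S boundary by E2F factors. Genes for mitosis, among them cyclins, kinases, kinetochore proteins and motor proteins, are transcribed later, in G2 and M phase, by complexes that act through the cell cycle homology region (CHR) and CCAAT elements of their promoters. In bulk RNA, fewer cells in a phase and less RNA per cell cannot be told apart.

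Promoter windows are shown for 6 members to compare the motifs of the 2 gene sets: Mcm5 and Mcm6 for replication, and Cdk1, Ccnb2, Kif11 and Ube2c for mitosis. The windows run from 250 bases before to 50 bases after the start of the gene in RefSeq, build GRCm38.p6, 5′ to 3′ on the strand of the gene. Capitals mark matches, on either strand, to an E2F motif (TTTCCCGC, TTTGGCGC or TTTCGCGC), to the CHR (TTTGAA) or to CCAAT. In the Mcm5 window E2F matches on opposite strands overlap, as they do in the Mcm6 window, so that each pair is seen as 1 run of capitals. In the Ube2c window a pair of CCAAT matches on opposite strands also forms 1 run. Matches to different motifs overlapped 1 time in the 33 windows of the members.
Mcm5: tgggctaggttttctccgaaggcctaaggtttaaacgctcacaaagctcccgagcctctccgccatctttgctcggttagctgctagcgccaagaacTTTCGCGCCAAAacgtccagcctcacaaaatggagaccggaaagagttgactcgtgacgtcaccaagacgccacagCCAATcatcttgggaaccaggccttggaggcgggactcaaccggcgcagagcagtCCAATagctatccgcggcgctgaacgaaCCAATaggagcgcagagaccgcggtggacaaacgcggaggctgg
Mcm6: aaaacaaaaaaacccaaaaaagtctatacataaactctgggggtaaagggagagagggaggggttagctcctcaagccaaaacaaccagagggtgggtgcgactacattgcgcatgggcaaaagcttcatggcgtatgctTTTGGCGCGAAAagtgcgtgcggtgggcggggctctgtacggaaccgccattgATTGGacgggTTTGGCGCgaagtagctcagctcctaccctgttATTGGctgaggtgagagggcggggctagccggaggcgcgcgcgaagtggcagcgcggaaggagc
Cdk1: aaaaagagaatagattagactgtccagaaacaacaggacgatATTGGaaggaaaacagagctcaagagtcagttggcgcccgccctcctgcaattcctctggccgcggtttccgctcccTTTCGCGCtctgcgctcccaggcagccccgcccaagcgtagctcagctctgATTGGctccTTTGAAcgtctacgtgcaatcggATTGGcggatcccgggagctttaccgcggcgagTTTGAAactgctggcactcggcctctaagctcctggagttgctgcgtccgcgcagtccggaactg
Ccnb2: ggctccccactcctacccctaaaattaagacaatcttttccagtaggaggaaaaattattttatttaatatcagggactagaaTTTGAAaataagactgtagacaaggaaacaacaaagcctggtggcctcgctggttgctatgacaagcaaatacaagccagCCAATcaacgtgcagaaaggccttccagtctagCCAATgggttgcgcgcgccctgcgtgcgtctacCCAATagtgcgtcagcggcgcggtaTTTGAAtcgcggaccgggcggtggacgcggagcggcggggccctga
Kif11: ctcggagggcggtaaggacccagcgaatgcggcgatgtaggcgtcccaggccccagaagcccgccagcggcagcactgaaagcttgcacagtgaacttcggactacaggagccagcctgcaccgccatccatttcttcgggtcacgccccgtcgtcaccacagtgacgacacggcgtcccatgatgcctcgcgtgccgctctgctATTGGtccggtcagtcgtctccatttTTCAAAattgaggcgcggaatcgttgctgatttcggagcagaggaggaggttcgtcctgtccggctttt
Ube2c: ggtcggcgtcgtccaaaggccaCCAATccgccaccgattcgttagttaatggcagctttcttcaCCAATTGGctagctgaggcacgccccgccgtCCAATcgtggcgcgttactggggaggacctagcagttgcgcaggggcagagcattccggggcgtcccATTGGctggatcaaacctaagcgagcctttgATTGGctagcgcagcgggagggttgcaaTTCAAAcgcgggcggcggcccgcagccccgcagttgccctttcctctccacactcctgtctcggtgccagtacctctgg
The positions are chr8:75109259-75109558 on the plus strand for Mcm5 and chr1:128359656-128359955 on the minus strand for Mcm6. For the mitosis genes they are chr10:69352863-69353162 (minus) for Cdk1, chr9:70421505-70421804 (minus) for Ccnb2, chr19:37376132-37376431 (plus) for Kif11 and chr2:164769679-164769978 (plus) for Ube2c.

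RefSeq windows were found for 32 of the 40 members, 16 in each set. An E2F match lay in the window of 7 of 16 replication genes (43.8%) and of 1 of 16 mitosis genes (6.2%), the latter being Cdk1, against 2.1% of all 27025 genes with a window. A CHR match lay in 2 of 16 replication genes (12.5%) and 12 of 16 mitosis genes (75%), against 20.2% of all genes. CCAAT lay in 11 of 16 replication genes (68.8%) and 15 of 16 mitosis genes (93.8%), against 41.1% of all genes. The sets thus differed in the letters of their promoters as described, and these matches are no measure of binding.

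Library totals ranged from 16539168 to 22196999 counts, so that 1 count was worth 0.0446 to 0.0603 CPM, the counts scaled to the library total. Fem1b fell with its siRNA by 1.66 ± 0.08 on the log2 scale (SE, adjusted p = 2.77e-11) in sgCTRL cells and by 1.51 ± 0.08 (adjusted p = 1.66e-10) in sgBACH1 cells. The Bach1 RNA level did not separate the guides (log2 fold change -0.09 ± 0.08, adjusted p = 0.344, under siCTRL), and an edited gene can keep its RNA, so this level does not check the knockout. With the siRNA, Bach1 RNA was called higher, by 0.40 (adjusted p = 0.000242) in sgCTRL and 0.44 (adjusted p = 0.000133) in sgBACH1 cells. Fem1b was called lower in knockout cells under siCTRL (-0.22, adjusted p = 0.0241) and not under siFEM1B (-0.08, adjusted p = 0.484). The epithelial keratins Krt8 and Krt18 stood at 1960 to 2990 CPM and Cdh1 at 309 to 679 CPM, while Epcam did not exceed 1.56 CPM. Of the markers of other cell types, 4 of 6 for alveolar type 2 cells, 4 of 6 for fibroblasts, 6 of 7 for leukocytes and 4 of 5 for endothelium stayed below 1 CPM in every library, among them Sftpc, Ptprc and Pecam1. Those that reached more were Abca3 (113 to 135 CPM), Lamp3 (up to 1.96), Cd14 (20.7 to 39.1), Col1a1 (7.63 to 23.5), Col1a2 (up to 1.32) and Cdh5 (up to 1.47).

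Some of these markers differed between the guides. The summed fibroblast markers were at 23.2 to 25 CPM in sgCTRL_siCTRL and 18.3 to 21.6 in sgCTRL_siFEM1B, and at 8.58 to 10.7 in sgBACH1_siCTRL and 9.55 to 11.2 in sgBACH1_siFEM1B. Col1a1 was lower in knockout cells under siCTRL (-1.42, adjusted p = 5.34e-10) and under siFEM1B (-0.93, adjusted p = 3.04e-07). Col1a2 was also called lower in both. Pdgfra, at most 0.873 CPM, went the other way under siCTRL (2.73, adjusted p = 0.00102) and was not called under siFEM1B (0.75, adjusted p = 0.151). The epithelial markers did not move together. Krt18 was lower under siCTRL (-0.34, adjusted p = 4.36e-05) and siFEM1B (-0.21, adjusted p = 0.00328), and Krt8 and Krt19 were called in neither. Cdh1 was higher, by 1.0 (adjusted p = 2.8e-11) and 0.62 (adjusted p = 3.7e-08). Epcam was called higher in both, with at most 0.108 CPM in control and 0.21 to 1.56 in knockout libraries. Cdh5 was called lower in both, with 0.33 to 1.47 CPM in control and at most 0.0603 in knockout libraries. The leukocyte markers summed to 32.3 to 39.3 CPM in sgCTRL_siCTRL and 20.9 to 25.5 in sgBACH1_siCTRL, nearly all of it Cd14 (-0.63, adjusted p = 3.42e-05), and under siFEM1B their ranges overlapped. The endothelial markers summed to at most 2.14 CPM and the alveolar type 2 markers, mostly Abca3, to 114 to 136 CPM. The part of these differences in the changes of the members was not tested.

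The 40 genes were expressed in every library. Per kilobase of annotated exon, averaged over the groups, the highest levels were those of Ube2c (147 CPM per kb), Ccnb2 (104) and Ccna2 (82.5), all mitosis genes, followed by Pcna (75.6), the highest of the replication genes. The lowest were Ccne1 (5.32 CPM per kb), Mcm10 (3.68) and Cdc6 (2.24), all replication genes. The group means of Ccna2 (69.2 to 94.9 CPM per kb) and of Pcna (59.2 to 91.4) overlapped, so these neighbours in the order are not separated. Whole genes, exons and introns together, lie in GENCODE's annotation of the same build at chr2:132249162-132253314 for Pcna, chr1:128331590-128359664 for Mcm6, chr5:30058202-30073617 for Tyms, chr10:69335146-69352938 for Cdk1, chr2:172356190-172370535 for Aurka and chr18:34624613-34633277 for Kif20a.

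No member changed as much as 2-fold in any of the 4 pairwise comparisons. The largest difference was that of Kif11, 0.75 on the log2 scale or 1.68-fold. Differences were tested with edgeR's quasi-likelihood test on all 12 libraries, and a gene is called here at an adjusted p under 0.05 over all 13281 genes. In sgBACH1 against sgCTRL cells under siCTRL, 5 of 20 replication genes were called, 3 higher and 2 lower, and 14 of 20 mitosis genes, 10 higher and 4 lower. Of all genes tested, 50.5% were called in this comparison, 24.2% higher and 26.3% lower. Under siFEM1B the same comparison called 7 replication genes, 3 higher and 4 lower, and 13 mitosis genes, 7 higher and 6 lower, against 54.6% of all genes (28.2% higher and 26.4% lower).

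FEM1B siRNA against control siRNA in sgCTRL cells called 4 replication genes, 3 higher and 1 lower, and 11 mitosis genes, 9 higher and 2 lower, against 45% of all genes (22.1% higher and 22.9% lower). In sgBACH1 cells it called 5 replication genes, 2 higher and 3 lower, and 12 mitosis genes, 7 higher and 5 lower, against 41.7% of all genes (21.9% higher and 19.8% lower). The share of replication genes called was thus 25, 35, 20 and 25% in these 4 comparisons, in each below the share of all genes. The share of mitosis genes called was 70, 65, 55 and 60%, in each above it. With the median of each chromosome removed in each library, a step described further on, this order did not hold throughout. In the knockout comparisons the replication genes were then no longer below all genes under siCTRL. Nor were the mitosis genes then above all genes under siFEM1B. Among genes of the same CPM range as the mitosis genes (80.4 to 620 CPM), 58.6, 61.7, 55.7 and 52.4% were called. The share of the 20 mitosis genes was near that background, above it in 3 comparisons and just below it for the siRNA in sgCTRL cells. Among genes in the CPM range of the replication genes (11.7 to 184 CPM), 53.1, 56.6, 51.5 and 47.4% were called, more than among the replication genes in every comparison.

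Median log2 fold changes were small in both sets. For knockout against control cells under siCTRL they were 0.05 for replication genes and 0.17 for mitosis genes, with -0.02 for all genes, and under siFEM1B they were -0.06 and -0.08, with 0.01 for all genes. For the siRNA they were 0.01 and 0.14 in sgCTRL cells and -0.06 and -0.01 in sgBACH1 cells, with 0 and 0.02 for all genes. The median absolute log2 fold change in the 4 comparisons was 0.1 to 0.16 for replication genes and 0.2 to 0.26 for mitosis genes, and 0.22 to 0.27 for all genes. Mitosis genes therefore moved about as far as the average gene, in both directions, and replication genes less far. In the same order of comparisons, the libraries of the groups compared did not overlap for 55, 40, 25 and 40% of replication genes. For mitosis genes this was 75, 55, 60 and 45%, and for all genes 60.3, 57, 52.1 and 51.5%. A lack of overlap between groups was therefore common among all genes. The share of all genes in which 6 libraries lay apart from the other 6 is not given here.

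**Figure D1:**
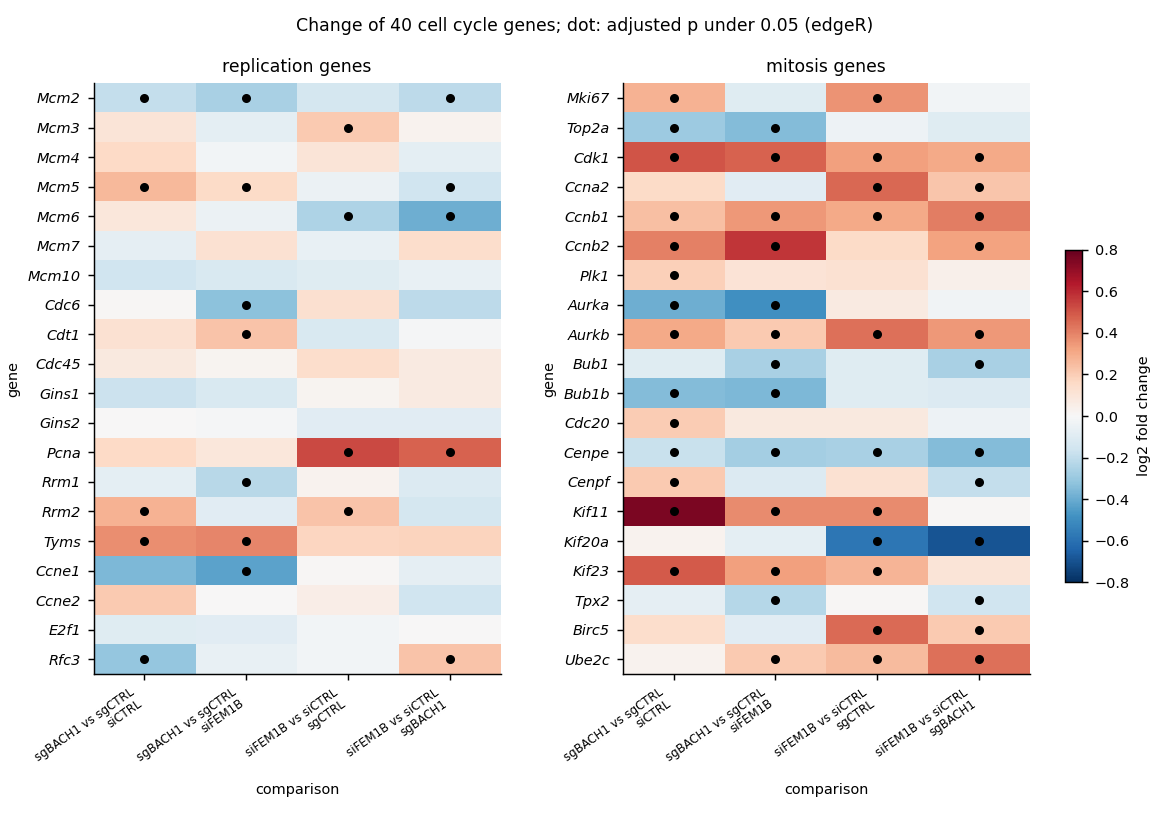
Log2 fold change (colour, from -0.8 to 0.8) of the 20 replication genes (left) and the 20 mitosis genes (right), with genes as rows and the 4 pairwise comparisons as columns, 3 libraries per group; a dot marks an adjusted p under 0.05. Dots are denser on the right, and Cdk1, Ccnb1, Aurkb and Cenpe carry a dot in all 4 columns.

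The number of replication genes called depended on the libraries used. Under siCTRL, the knockout comparison called 5 with all libraries, 9 without sgCTRL_siFEM1B replicate 3 and 8 without sgCTRL_siFEM1B replicate 1, libraries that belong to neither group compared but share the estimate of the spread. Under siFEM1B it called 7 with all libraries and 4 without sgBACH1_siFEM1B replicate 3. The siRNA comparison in sgCTRL cells called 4, and 2 without sgCTRL_siCTRL replicate 2 or without sgCTRL_siFEM1B replicate 3. The counts of mitosis genes ranged over 12 to 15, 12 to 15, 11 to 14 and 9 to 12 when each library was left out in turn. The share of all genes called in each of these fits is not given here. These changes can therefore not be read as particular to the members.

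Among the genes of the MCM helicase, the ring that unwinds DNA at the fork, the subunits did not move together. Mcm6 fell with the siRNA in both genotypes. Its level was 138, 123 and 131 CPM in the 3 libraries of sgCTRL_siCTRL, 143, 131 and 142 in sgBACH1_siCTRL, 113, 107 and 109 in sgCTRL_siFEM1B and 104, 113 and 100 in sgBACH1_siFEM1B. All 6 siFEM1B libraries were below all 6 siCTRL libraries. The log2 fold change was -0.25 ± 0.06 in sgCTRL cells (adjusted p = 0.00221) and -0.39 ± 0.06 in sgBACH1 cells (adjusted p = 3.42e-05). Its promoter, printed above, holds 3 E2F matches.

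Mcm2 was lower in knockout than in control cells. It stood at 119, 121 and 123 CPM in sgCTRL_siCTRL, 111, 98.8 and 108 in sgBACH1_siCTRL, 103, 115 and 113 in sgCTRL_siFEM1B and 89, 95.9 and 90.1 in sgBACH1_siFEM1B. No knockout library reached the control libraries of the same siRNA, and the libraries with both perturbations were the lowest of all. The knockout effect was -0.19 ± 0.06 under siCTRL (adjusted p = 0.00984) and -0.26 ± 0.06 under siFEM1B (adjusted p = 0.000916). Without sgBACH1_siCTRL replicate 2 the first was -0.15 and not called (adjusted p = 0.0666). The siRNA lowered Mcm2 in sgBACH1 cells by 0.21 (adjusted p = 0.00824), and in sgCTRL cells the value was -0.14 (adjusted p = 0.0629).

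Mcm5 went the other way from Mcm2 with the knockout. Its level was 122, 108 and 115 CPM in sgCTRL_siCTRL, 138, 133 and 141 in sgBACH1_siCTRL, 110, 111 and 111 in sgCTRL_siFEM1B and 114, 129 and 125 in sgBACH1_siFEM1B. The knockout libraries were above the control libraries under each siRNA. With the knockout it rose by 0.26 ± 0.06 under siCTRL (adjusted p = 0.00105) and 0.15 ± 0.06 under siFEM1B (adjusted p = 0.0434), the latter lost without any 1 of 8 libraries. These were sgCTRL_siCTRL replicate 3, sgBACH1_siCTRL replicates 1 and 3, all sgCTRL_siFEM1B replicates and sgBACH1_siFEM1B replicates 2 and 3, with values of 0.11 to 0.15 and adjusted p of 0.053 to 0.155. With the siRNA, Mcm5 fell in sgBACH1 cells by 0.16 (adjusted p = 0.0296), a call lost without sgBACH1_siCTRL replicate 1, sgBACH1_siCTRL replicate 3 or sgBACH1_siFEM1B replicate 1 (values -0.16 to -0.11, adjusted p 0.0761 to 0.177). In sgCTRL cells it was not called (-0.05, adjusted p = 0.503).

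Of the other helicase genes, Mcm3 rose with the siRNA in sgCTRL cells by 0.21 ± 0.07 (adjusted p = 0.0237). That call was lost without sgCTRL_siCTRL replicate 2, sgCTRL_siCTRL replicate 3 or sgCTRL_siFEM1B replicate 3 (values 0.14 to 0.19, adjusted p 0.0742 to 0.106). Mcm4, Mcm7, the initiation factor Mcm10, and Cdc45, Gins1 and Gins2, which complete the active helicase, were called in none of the 4 comparisons, with log2 fold changes between -0.17 and 0.16. Exons of Gins2 overlap those of Gse1 on the opposite strand over 67.3% of their length and those of Mcm7 overlap Ap4m1 over 7.3%. Without the strand setting of the counting, reads of such pairs may not be told apart. Gse1 itself rose with the siRNA by 0.43 in sgCTRL cells (adjusted p = 5.72e-06), while Gins2 was at -0.09 (adjusted p = 0.402).

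Cdt1 and Cdc6 load the helicase onto origins. Cdt1 stood at 131, 125 and 127 CPM in sgCTRL_siCTRL, 141, 137 and 139 in sgBACH1_siCTRL, 117, 115 and 121 in sgCTRL_siFEM1B and 142, 130 and 142 in sgBACH1_siFEM1B. Knockout libraries were above control libraries under each siRNA. The difference was called under siFEM1B (0.23 ± 0.05, adjusted p = 0.000829) and not under siCTRL (0.12 ± 0.05, adjusted p = 0.0575). The siRNA effects on Cdt1 were -0.12 in sgCTRL cells (adjusted p = 0.0568) and -0.01 in sgBACH1 cells (adjusted p = 0.866), neither called. Cdc6, the member with the lowest level per kilobase, was lower in knockout cells under siFEM1B (-0.33 ± 0.13, adjusted p = 0.038). With the median of each chromosome removed in each library, a step described further on, it was at -0.29 and not called (adjusted p = 0.0793). The call was also lost without sgCTRL_siFEM1B replicate 3, sgBACH1_siFEM1B replicate 1 or sgBACH1_siFEM1B replicate 3 (values -0.34 to -0.16, adjusted p 0.0753 to 0.263).

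Pcna, the sliding clamp, showed the largest siRNA effect among the replication genes. It was at 147, 135 and 145 CPM in sgCTRL_siCTRL, 160, 153 and 163 in sgBACH1_siCTRL, 183, 198 and 237 in sgCTRL_siFEM1B and 209, 243 and 205 in sgBACH1_siFEM1B. Every siFEM1B library was above every siCTRL library. The rise was 0.53 ± 0.08 in sgCTRL cells (adjusted p = 1.84e-05) and 0.47 ± 0.08 in sgBACH1 cells (adjusted p = 9.45e-05). The knockout effects were 0.16 (adjusted p = 0.0997) and 0.09 (adjusted p = 0.341), neither called. With chromosome medians removed they were 0.29 (adjusted p = 0.00658) and 0.20 (adjusted p = 0.0437), both called. The annotation lists pseudogenes of Pcna, as it does of Tyms, Ccnb1 and Ccnb2, and reads shared with them make these values less certain.

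Rfc3, a subunit of the complex that loads the clamp, was called in opposite directions in different comparisons. Its level was 35.8, 34.9 and 38.6 CPM in sgCTRL_siCTRL, 28, 28.9 and 31.1 in sgBACH1_siCTRL, 35.7, 32.4 and 39.6 in sgCTRL_siFEM1B and 32.3, 36.2 and 34.7 in sgBACH1_siFEM1B. The sgBACH1_siCTRL libraries were the lowest of all 12. Rfc3 was lower in knockout cells under siCTRL (-0.31 ± 0.08, adjusted p = 0.00343) and rose with the siRNA in sgBACH1 cells (0.23 ± 0.08, adjusted p = 0.0318), comparisons that share the sgBACH1_siCTRL libraries. The second call was lost without sgBACH1_siCTRL replicate 1 or 2 or sgBACH1_siFEM1B replicate 2 or 3 (values 0.19 to 0.22, adjusted p 0.0746 to 0.116).

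Tyms encodes thymidylate synthase, which makes the thymidine nucleotide. It stood at 34.8, 27.8 and 31 CPM in sgCTRL_siCTRL, 41.2, 39 and 41 in sgBACH1_siCTRL, 33, 36 and 36.2 in sgCTRL_siFEM1B and 47.4, 42.5 and 47.5 in sgBACH1_siFEM1B. All 6 knockout libraries were above all 6 control libraries. The rise in knockout cells was 0.37 ± 0.08 under siCTRL (adjusted p = 0.000697) and 0.39 ± 0.08 under siFEM1B (adjusted p = 0.00041), the largest rise of a replication gene in both. The siRNA effects of 0.17 (adjusted p = 0.107) and 0.18 (adjusted p = 0.0758) were not called.

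Rrm1 and Rrm2 encode the subunits of ribonucleotide reductase, which makes the precursors of DNA. Rrm2 was at 168, 151 and 173 CPM in sgCTRL_siCTRL, 208, 181 and 209 in sgBACH1_siCTRL, 176, 186 and 217 in sgCTRL_siFEM1B and 173, 200 and 171 in sgBACH1_siFEM1B. The sgCTRL_siCTRL libraries did not overlap with those of either single perturbation, and overlapped with the group that had both. The knockout raised Rrm2 under siCTRL by 0.28 ± 0.08 (adjusted p = 0.00605). The siRNA raised it in sgCTRL cells by 0.23 ± 0.08 (adjusted p = 0.021), a call lost without sgCTRL_siCTRL replicate 2 or sgCTRL_siFEM1B replicate 3 (values 0.16 to 0.18, adjusted p 0.0989 to 0.117). In the presence of the other perturbation the values were -0.09 and -0.14 (adjusted p = 0.358 and 0.184). Rrm1 was called only in the knockout comparison under siFEM1B, where it was lower (-0.22 ± 0.06, adjusted p = 0.00596).

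Ccne1 and Ccne2 encode the cyclin E proteins, which drive entry into S phase with CDK2, and E2f1 encodes a factor that activates replication genes. Ccne1 was lower in knockout cells under siFEM1B (-0.43 ± 0.16, adjusted p = 0.0256). The call was lost without sgCTRL_siFEM1B replicate 2 or 3 or sgBACH1_siFEM1B replicate 1 or 3 (values -0.42 to -0.27, adjusted p 0.062 to 0.158). Ccne2 and E2f1 were called in none of the 4 comparisons. E2f1 lay between -0.1 and 0, and Ccne2 between -0.16 and 0.21.

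**Figure D2:**
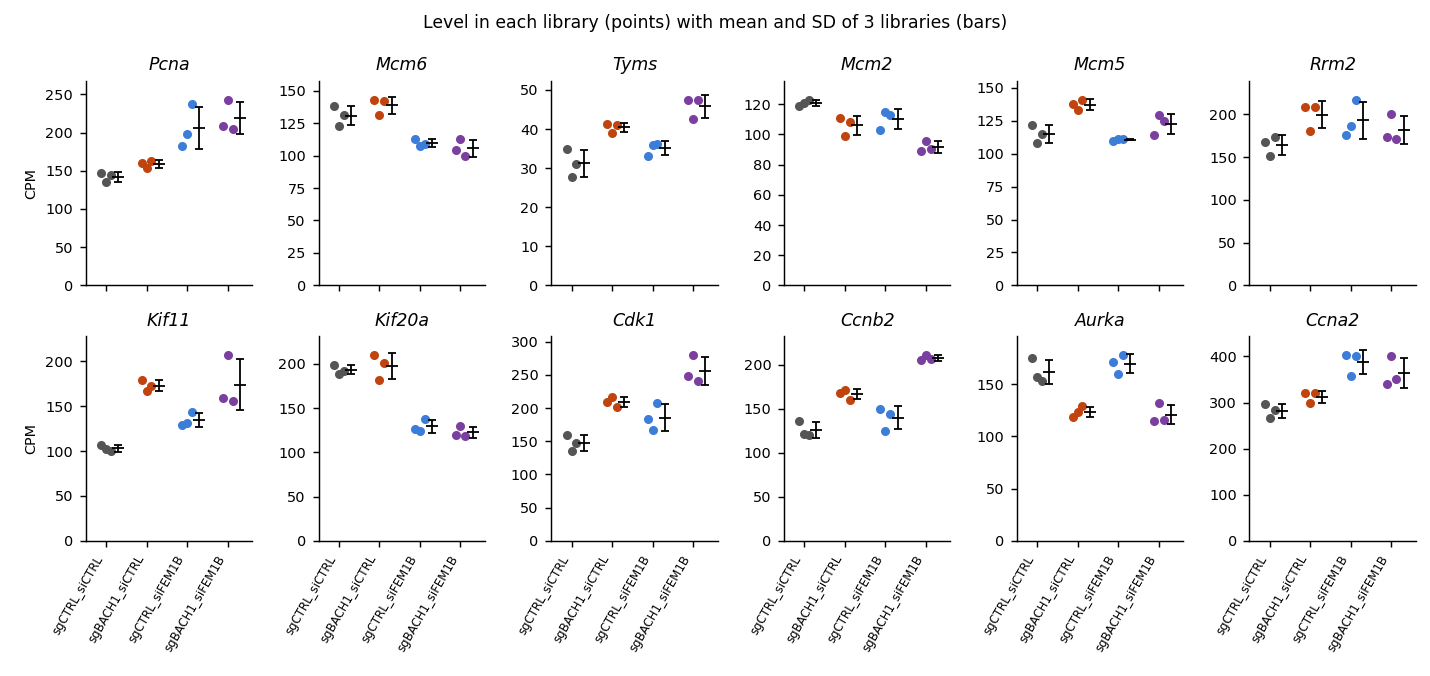
Level in CPM (y axis, from 0) of 6 replication genes (top) and 6 mitosis genes (bottom) in each of the 12 libraries (points), by group, with the mean and SD of 3 libraries beside them. Pcna is higher and Mcm6 and Kif20a are lower in the siFEM1B groups, while Tyms, Cdk1 and Ccnb2 are higher and Aurka is lower in the sgBACH1 groups of each siRNA.

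Cdk1, the kinase that drives entry into mitosis, rose in all 4 comparisons. It was at 160, 135 and 148 CPM in sgCTRL_siCTRL, 209, 217 and 202 in sgBACH1_siCTRL, 183, 167 and 207 in sgCTRL_siFEM1B and 248, 280 and 241 in sgBACH1_siFEM1B. The reference group was below every other group and the group with both perturbations above every other, without overlap. The knockout effect was 0.50 ± 0.08 under siCTRL (adjusted p = 1.42e-05) and 0.47 ± 0.07 under siFEM1B (adjusted p = 2.7e-05). The siRNA effect was 0.33 ± 0.08 in sgCTRL cells (adjusted p = 0.00141) and 0.30 ± 0.07 in sgBACH1 cells (adjusted p = 0.00345). Cdk1 is the mitosis gene whose promoter, printed above, holds E2F, CHR and CCAAT matches.

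The cyclin genes whose products bind CDK1 are Ccnb1, Ccnb2 and Ccna2. Ccnb1, a cyclin B gene, was called higher in all 4 comparisons, by 0.24 to 0.41. Ccnb2 stood at 136, 121 and 120 CPM in sgCTRL_siCTRL, 168, 171 and 160 in sgBACH1_siCTRL, 150, 125 and 144 in sgCTRL_siFEM1B and 205, 211 and 206 in sgBACH1_siFEM1B. All knockout libraries were above all control libraries. The knockout effect on Ccnb2 was 0.40 ± 0.06 under siCTRL (adjusted p = 2.61e-05) and 0.57 ± 0.06 under siFEM1B (adjusted p = 3.16e-07), and the siRNA effect was 0.32 in sgBACH1 cells (adjusted p = 0.000465) and 0.15 in sgCTRL cells (adjusted p = 0.0594). With chromosome medians removed, the knockout effect under siCTRL was 0.13 and not called (adjusted p = 0.0986), and that under siFEM1B was 0.28 (adjusted p = 0.00119).

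Ccna2, the cyclin A gene of S and G2 phase, rose with the siRNA in both genotypes. It was at 297, 267 and 283 CPM in sgCTRL_siCTRL, 320, 298 and 320 in sgBACH1_siCTRL, 403, 358 and 402 in sgCTRL_siFEM1B and 341, 401 and 351 in sgBACH1_siFEM1B. Every siFEM1B library was above every siCTRL library. The siRNA effect was 0.46 ± 0.06 in sgCTRL cells (adjusted p = 1.16e-05) and 0.22 ± 0.06 in sgBACH1 cells (adjusted p = 0.0093). Without sgBACH1_siFEM1B replicate 2, the highest of its group, the second was 0.15 and not called (adjusted p = 0.0653). The knockout effects of 0.15 (adjusted p = 0.0681, without overlap) and -0.09 (adjusted p = 0.256) were not called, and with chromosome medians removed the first was 0.28 and called (adjusted p = 0.00143). Exons of Ccna2 overlap those of Exosc9 on the opposite strand over 12.5% of their length, and Exosc9 was at 0.23 (adjusted p = 0.00339) and 0.12 (adjusted p = 0.112) with the siRNA.

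The Aurora kinase genes went in opposite directions with the knockout. Aurka, whose product matures the spindle poles, was at 175, 157 and 153 CPM in sgCTRL_siCTRL, 119, 123 and 129 in sgBACH1_siCTRL, 171, 160 and 178 in sgCTRL_siFEM1B and 115, 132 and 116 in sgBACH1_siFEM1B. All knockout libraries were below all control libraries. The knockout effect was -0.39 ± 0.06 under siCTRL (adjusted p = 5.03e-05) and -0.49 ± 0.07 under siFEM1B (adjusted p = 3.15e-06), while the siRNA effects were 0.07 (adjusted p = 0.421) and -0.03 (adjusted p = 0.723).

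Aurkb, the kinase of the chromosomal passenger complex, was called higher in all 4 comparisons. Its knockout effect was 0.30 ± 0.08 (adjusted p = 0.00497) under siCTRL and 0.21 ± 0.08 (adjusted p = 0.0364) under siFEM1B. The second was lost without sgCTRL_siFEM1B replicate 1 or 2 or sgBACH1_siFEM1B replicate 2 (values 0.12 to 0.20, adjusted p 0.0727 to 0.221). The siRNA raised Aurkb by 0.44 in sgCTRL cells (adjusted p = 0.000203) and by 0.35 in sgBACH1 cells (adjusted p = 0.00175).

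Birc5 encodes survivin, which belongs to the same complex as Aurora B. Its level was 69.9, 65.1 and 68.5 CPM in sgCTRL_siCTRL, 79.3, 67.4 and 77.6 in sgBACH1_siCTRL, 86.3, 88.1 and 103 in sgCTRL_siFEM1B and 84.3, 97.2 and 78.4 in sgBACH1_siFEM1B. In sgCTRL cells the siRNA groups did not overlap, and in sgBACH1 cells they did. The siRNA effect was 0.45 ± 0.08 (adjusted p = 0.000194) in sgCTRL cells. In sgBACH1 cells it was 0.21 ± 0.08 (adjusted p = 0.0453), a call lost without any 1 of 8 libraries (values 0.12 to 0.24, adjusted p 0.051 to 0.246). These were all sgCTRL_siCTRL replicates, sgBACH1_siCTRL replicates 2 and 3, sgCTRL_siFEM1B replicate 2 and sgBACH1_siFEM1B replicates 1 and 2.

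Tpx2, an activator of Aurora A, was lower in knockout cells under siFEM1B (-0.23 ± 0.05, adjusted p = 0.000766), and at -0.12 and not called with chromosome medians removed (adjusted p = 0.0527). It was also lower with the siRNA in sgBACH1 cells (-0.16 ± 0.05, adjusted p = 0.0187), a call lost without sgBACH1_siCTRL replicate 1 or sgBACH1_siFEM1B replicate 1 or 3 (values -0.15 to -0.13, adjusted p 0.0528 to 0.101). Plk1, a kinase that acts from mitotic entry to exit, was higher in knockout cells under siCTRL (0.19 ± 0.06, adjusted p = 0.0143) and was called in no other comparison. Without sgCTRL_siCTRL replicate 2 or sgBACH1_siCTRL replicate 2 it was at 0.16 to 0.17 (adjusted p 0.0546 to 0.0607).

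The spindle checkpoint genes Bub1b and Bub1 were lower wherever they were called, and Cdc20 and Ube2c, which act downstream, were higher wherever they were called. Bub1b, which encodes the checkpoint protein BUBR1, was lower in knockout cells by 0.35 under siCTRL (adjusted p = 9.17e-05) and by 0.36 under siFEM1B (adjusted p = 6.07e-05). The checkpoint kinase gene Bub1 was lower in knockout cells under siFEM1B (-0.26, adjusted p = 0.00351, and -0.16, adjusted p = 0.0687, with chromosome medians removed) and with the siRNA in sgBACH1 cells (-0.26, adjusted p = 0.00517). Cdc20, the activator of the anaphase-promoting complex that the checkpoint holds back, was higher in knockout cells under siCTRL (0.20 ± 0.07, adjusted p = 0.0148). Without sgCTRL_siCTRL replicate 2 or 3 it was at 0.17 to 0.18 (adjusted p 0.0604 to 0.0797).

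Ube2c encodes the ubiquitin-conjugating enzyme of that complex. It was at 339, 336 and 325 CPM in sgCTRL_siCTRL, 328, 350 and 340 in sgBACH1_siCTRL, 399, 356 and 437 in sgCTRL_siFEM1B and 435, 481 and 462 in sgBACH1_siFEM1B. Every siFEM1B library was above every siCTRL library. The siRNA raised it by 0.25 ± 0.06 in sgCTRL cells (adjusted p = 0.00234) and by 0.44 ± 0.06 in sgBACH1 cells (adjusted p = 1.39e-05). Under siFEM1B it was also higher in knockout cells (0.21, adjusted p = 0.00741), a call lost without sgCTRL_siFEM1B replicate 2 (0.13, adjusted p = 0.0811). Exons of Ube2c overlap those of Tnnc2 on the opposite strand over 22.8% of their length. Tnnc2 averaged 1.3 CPM, and the part of this overlap in the values of Ube2c was not tested.

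Of the 3 members with a Kif symbol, which encode mitotic kinesins, Kif11 gave the largest rise and Kif20a the largest fall of any member. Kif11, the motor that pushes spindle poles apart, was at 107, 102 and 100 CPM in sgCTRL_siCTRL, 179, 167 and 173 in sgBACH1_siCTRL, 129, 131 and 143 in sgCTRL_siFEM1B and 159, 207 and 156 in sgBACH1_siFEM1B. The reference group was below all others, and the knockout groups overlapped with each other. The knockout effect was 0.75 ± 0.08 under siCTRL (adjusted p = 2.08e-07) and 0.38 ± 0.08 under siFEM1B (adjusted p = 0.000531). With the median of chromosome 19 removed in each library, these were 0.31 (adjusted p = 0.00352) and -0.06 (adjusted p = 0.572), so that the second was no longer called. The siRNA effect was 0.38 ± 0.08 in sgCTRL cells (adjusted p = 0.000754) and 0.01 ± 0.08 in sgBACH1 cells (adjusted p = 0.924).

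Kif20a, a motor of the central spindle and of cytokinesis, fell with the siRNA and was not called with the knockout. Its level was 199, 189 and 192 CPM in sgCTRL_siCTRL, 210, 182 and 201 in sgBACH1_siCTRL, 126, 124 and 138 in sgCTRL_siFEM1B and 120, 130 and 118 in sgBACH1_siFEM1B. All siFEM1B libraries were below all siCTRL libraries by a wide gap, from 138 to 182 CPM. The siRNA effect was -0.58 ± 0.06 in sgCTRL cells (adjusted p = 3.25e-07) and -0.69 ± 0.06 in sgBACH1 cells (adjusted p = 6.03e-08). Exons of Kif20a overlap those of Cdc23 on the opposite strand over 29.3% of their length, and Cdc23 fell by 0.20 (adjusted p = 0.00304) and 0.22 (adjusted p = 0.00141). The part of this overlap in the fall of Kif20a was not tested.

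Kif23, another motor of cytokinesis, was at 136, 150 and 146 CPM in sgCTRL_siCTRL, 204, 202 and 202 in sgBACH1_siCTRL, 169, 162 and 190 in sgCTRL_siFEM1B and 202, 239 and 213 in sgBACH1_siFEM1B. All knockout libraries were above all control libraries. Its rise in knockout cells was 0.49 ± 0.07 under siCTRL (adjusted p = 3.75e-06) and 0.33 ± 0.07 under siFEM1B (adjusted p = 0.000298). With the median of chromosome 9 removed they were 0.22 (adjusted p = 0.0108) and 0.04 (adjusted p = 0.667, not called). The siRNA raised Kif23 in sgCTRL cells by 0.27 (adjusted p = 0.00265), and in sgBACH1 cells the value was 0.10 (adjusted p = 0.213).

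Cenpe and Cenpf encode large kinetochore proteins. Cenpe stood at 204, 219 and 217 CPM in sgCTRL_siCTRL, 188, 187 and 191 in sgBACH1_siCTRL, 187, 172 and 174 in sgCTRL_siFEM1B and 139, 156 and 148 in sgBACH1_siFEM1B. The reference group was the highest and the group with both perturbations the lowest, each without overlap. Cenpe fell in all 4 comparisons, by 0.18 (adjusted p = 0.00925) and 0.27 (adjusted p = 0.000345) with the knockout under siCTRL and siFEM1B, and by 0.26 (adjusted p = 0.00049) and 0.35 (adjusted p = 3.24e-05) with the siRNA in sgCTRL and sgBACH1 cells. With chromosome medians removed the first of these was -0.04 and not called (adjusted p = 0.555).

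Cenpf was at 107, 116 and 121 CPM in sgCTRL_siCTRL, 135, 125 and 137 in sgBACH1_siCTRL, 131, 113 and 129 in sgCTRL_siFEM1B and 110, 125 and 111 in sgBACH1_siFEM1B. Only the pair of siCTRL groups did not overlap. It was higher in knockout cells under siCTRL (0.21 ± 0.07, adjusted p = 0.017) and fell with the siRNA in sgBACH1 cells (-0.19 ± 0.07, adjusted p = 0.0285). The first call was lost without sgCTRL_siCTRL replicate 1 or sgBACH1_siCTRL replicate 1 or 3 (values 0.16 to 0.19, adjusted p 0.0572 to 0.0926). The second was lost without sgBACH1_siCTRL replicate 1 or 3 or sgBACH1_siFEM1B replicate 1 or 3 (values -0.18 to -0.16, adjusted p 0.0859 to 0.121).

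Top2a and Mki67, which encode a topoisomerase that untangles chromosomes and a coat protein of mitotic chromosomes, are common markers of dividing cells. Top2a was lower in knockout cells by 0.29 under siCTRL (adjusted p = 0.000655) and by 0.35 under siFEM1B (adjusted p = 8e-05), and it was not called with the siRNA (-0.04 and -0.10). Mki67 was higher in knockout cells under siCTRL (0.28 ± 0.09, adjusted p = 0.0109), a call lost without sgCTRL_siCTRL replicate 1 or sgBACH1_siCTRL replicate 1 or 3 (values 0.21 to 0.24, adjusted p 0.0557 to 0.0682). With the siRNA it rose in sgCTRL cells by 0.36 (adjusted p = 0.00197), and it was at -0.02 (adjusted p = 0.853) in sgBACH1 cells.

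The siRNA comparisons in the 2 genotypes use separate libraries, so their calls can be set beside each other. Both called Mcm6 lower and Pcna higher among replication genes, which is 50% of the calls in sgCTRL cells and 40% of those in sgBACH1 cells. Among mitosis genes both called 8, Cdk1, Ccna2, Ccnb1, Aurkb, Birc5 and Ube2c higher and Cenpe and Kif20a lower, which is 72.7% and 66.7% of the calls. Of all genes called, 60.2% of those in sgCTRL cells and 65% of those in sgBACH1 cells were called in the same direction in both. The knockout comparisons under the 2 siRNAs also use separate libraries. Both called Mcm5 and Tyms higher and Mcm2 lower among replication genes, 60% and 42.9% of the calls. Among mitosis genes both called 10, Cdk1, Ccnb1, Ccnb2, Aurkb, Kif11 and Kif23 higher and Top2a, Aurka, Bub1b and Cenpe lower, 71.4% and 76.9% of the calls. For all genes these shares were 73.9% and 68.4%, so that the share of the mitosis genes was near that of all genes. With chromosome medians removed, Kif11 and Kif23 were no longer called under siFEM1B, nor Ccnb2 and Cenpe under siCTRL.

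**Figure D3:**
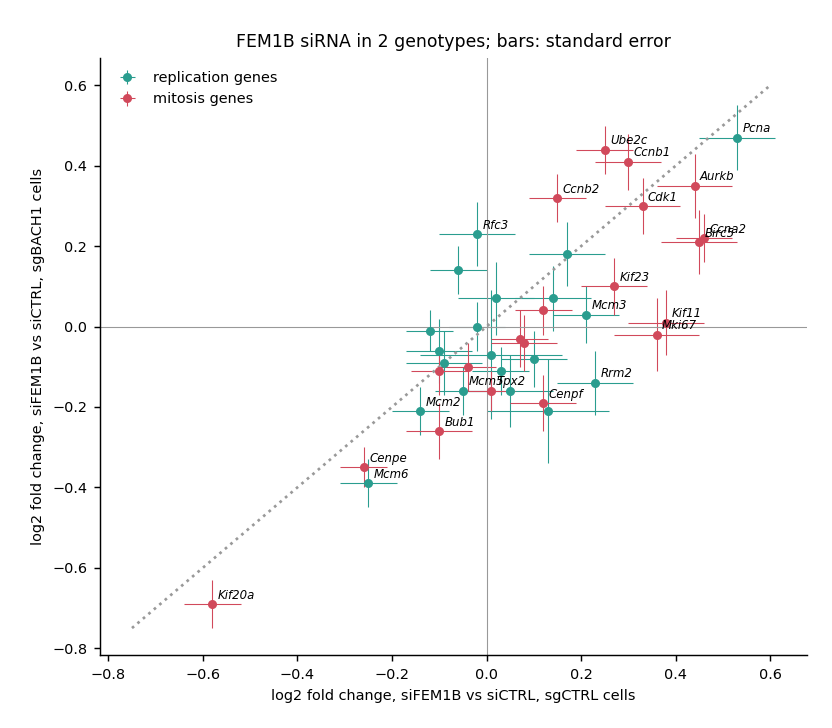
Log2 fold change of the 40 genes with FEM1B siRNA in sgCTRL cells (x axis) and in sgBACH1 cells (y axis), 3 libraries per group, with standard errors as bars and the line of equal effects dotted; genes called in either are named. Kif20a lies at the lower left (-0.58 and -0.69) and Pcna at the upper right (0.53 and 0.47), while Kif11, Mki67 and Rrm2 lie below the dotted line.

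The interaction, the siRNA effect in sgBACH1 cells minus that in sgCTRL cells, was called for 0 of 20 replication genes and 0 of 20 mitosis genes by edgeR, against 6.08% of all genes (3.48% higher and 2.6% lower). At an unadjusted p under 0.05 there were 3 of 20 replication and 5 of 20 mitosis genes, against 3117 of all 13281 genes. The first share was below that of all genes and the second near it. DESeq2 called 1 replication and 3 mitosis genes, and its share of all genes is not given here. Those called by DESeq2 were Rrm2, Mki67, Cenpf and Kif11, each negative. In edgeR the interaction was -0.37 ± 0.11 for Rrm2 (adjusted p = 0.0548), -0.38 ± 0.12 for Mki67 (adjusted p = 0.0642), -0.31 ± 0.10 for Cenpf (adjusted p = 0.0588) and -0.37 ± 0.11 for Kif11 (adjusted p = 0.0578). All 4 adjusted p-values were just above 0.05, so that a different response of these genes in the 2 genotypes was neither called nor shown to be absent.

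These calls also depended on the settings. With all libraries, edgeR called the 4 genes with RLE factors (adjusted p = 0.0408, 0.0499, 0.0435 and 0.0424 for Rrm2, Mki67, Cenpf and Kif11) and with no filter on low counts (adjusted p = 0.000751, 0.000141, 0.0115 and 0.00127). Without sgBACH1_siFEM1B replicate 2, which held the highest Kif11 level of all libraries (207 CPM), edgeR called Rrm2 (-0.44, adjusted p = 0.00938), Mki67 (-0.50, adjusted p = 0.00278), Cenpf (-0.38, adjusted p = 0.0114), Kif11 (-0.51, adjusted p = 0.000259) and Ccna2 (-0.31, adjusted p = 0.0175). Without sgCTRL_siFEM1B replicate 1, it called Rrm2 (-0.46), Mki67 (-0.43) and Kif11 (-0.42). Without sgBACH1_siCTRL replicate 2, it called Rrm2 (-0.43), Mki67 (-0.46) and Cenpf (-0.36), and without sgCTRL_siFEM1B replicate 2 it called Cenpf (-0.40). The number of all genes with a called interaction also changed between fits, and was highest without sgBACH1_siFEM1B replicate 2, as given in the last section. The added calls can therefore not be read as particular to the members.

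The mean of each set was formed for each library as the mean over 20 genes of the log2 CPM minus the gene's mean over all libraries. For the replication genes the group means ± SD were -0.01 ± 0.05 in sgCTRL_siCTRL, 0.01 ± 0.06 in sgBACH1_siCTRL, 0.03 ± 0.09 in sgCTRL_siFEM1B and -0.02 ± 0.07 in sgBACH1_siFEM1B (n = 3). For the mitosis genes they were -0.10 ± 0.02, 0.03 ± 0.03, 0.03 ± 0.09 and 0.04 ± 0.11 in the same order. The replication means overlapped in all groups. All 3 sgCTRL_siCTRL libraries, at -0.12 to -0.08, were below all other libraries in the mitosis mean, whose lowest was sgCTRL_siFEM1B replicate 2 at -0.06.

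The difference of the means, replication minus mitosis, was 0.06 to 0.11 in sgCTRL_siCTRL and lower in every other library. It was -0.05 to 0 in sgBACH1_siCTRL, -0.08 to 0.035 in sgCTRL_siFEM1B and -0.11 to -0.04 in sgBACH1_siFEM1B. The highest mitosis mean, 0.17, was that of sgBACH1_siFEM1B replicate 2, and the highest replication mean, 0.13, that of sgCTRL_siFEM1B replicate 3. The other sgBACH1_siFEM1B libraries had mitosis means of -0.02 and -0.01, so that the mean of that group rests on 1 library.

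**Figure D4:**
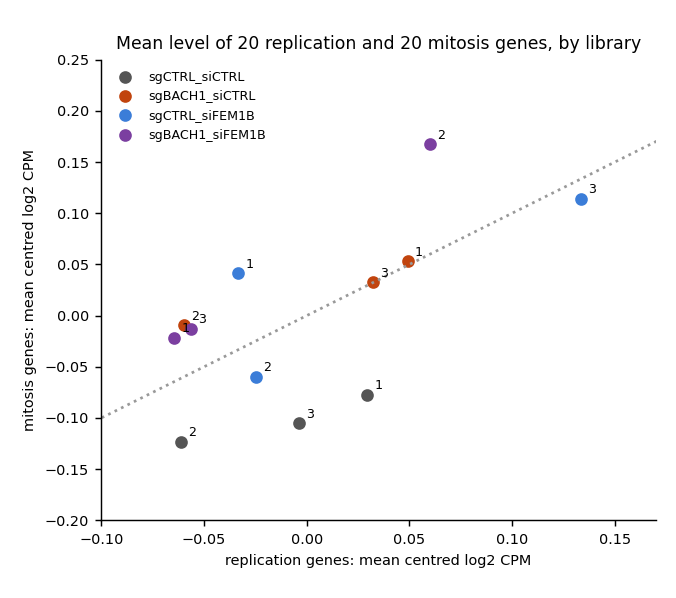
Mean centred log2 CPM of the 20 replication genes (x axis) and of the 20 mitosis genes (y axis) in each of the 12 libraries, coloured by group and numbered by replicate; the dotted line marks equal values. The sgCTRL_siCTRL libraries lie lowest, at -0.12 to -0.08 on the y axis, and between -0.06 and 0.03 on the x axis.

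In the knockout comparisons, whole chromosomes were shifted. Under siCTRL the median log2 fold change of all genes tested on a chromosome was highest on chromosomes 19, 9 and 14, at 0.44, 0.27 and 0.24, and lowest on chromosome 12, at -0.28. Kif11 lies on chromosome 19 (chr19:37376403-37421859), Kif23 and Ccnb2 on chromosome 9 (chr9:61915905-61946774 and chr9:70407692-70421547) and Rrm2 on chromosome 12 (chr12:24708241-24714146). With the median of each chromosome removed in each library, the calls of Kif11 and Kif23 under siFEM1B and of Ccnb2 under siCTRL ended, with the values given above.

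The same step moved Rrm2 under siCTRL from 0.28 to 0.52 (adjusted p = 3.11e-05). It also ended the calls of Cenpe under siCTRL and of Cdc6, Bub1 and Tpx2 under siFEM1B. Under siCTRL it added calls of higher level for Pcna (0.29, adjusted p = 0.00658), Cdt1 (0.21, adjusted p = 0.00208), Mcm4 (0.17, adjusted p = 0.0433), Ccne2 (0.25, adjusted p = 0.0348), Ccna2 (0.28, adjusted p = 0.00143), Kif20a (0.22, adjusted p = 0.00615) and Birc5 (0.22, adjusted p = 0.0392). Under siFEM1B it added such a call for Pcna (0.20, adjusted p = 0.0437). The replication genes called were then 7 higher and 2 lower under siCTRL (3 and 2 without the step), and 4 higher and 3 lower under siFEM1B (3 and 4 without it). The mitosis genes called were 12 higher and 3 lower under siCTRL, and 5 higher and 4 lower under siFEM1B. Of all genes, 44% and 50.1% were called after this step. The replication genes called under siCTRL were thus no longer below the share of all genes. Under siFEM1B the mitosis genes called were no longer above it. The part of chromosome-wide differences between the lines in the knockout effects was not tested beyond these values.

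**Figure D5:**
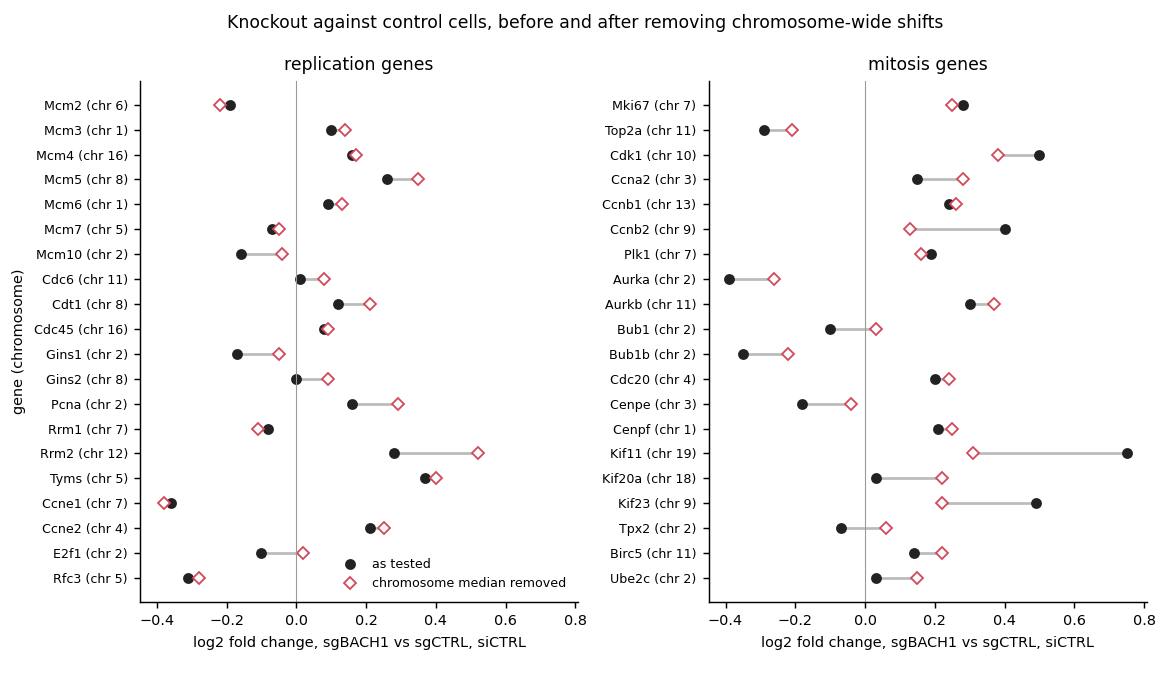
Log2 fold change of sgBACH1 against sgCTRL cells under siCTRL for the 20 replication genes (left) and the 20 mitosis genes (right), as tested (filled) and with the median of each chromosome removed in each library (open), 3 libraries per group; the chromosome of each gene stands beside its name. Kif11 moves from 0.75 to 0.31 and Rrm2 from 0.28 to 0.52.

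Further genes of the same processes were taken from lists outside the 40. Of 44 other replication genes, 9 were called higher and 3 lower with the knockout under siCTRL, 6 and 6 under siFEM1B, 6 and 12 with the siRNA in sgCTRL cells and 3 and 12 in sgBACH1 cells. These are 27.3, 27.3, 40.9 and 34.1% of the list, in each comparison below the 50.5, 54.6, 45 and 41.7% of all genes. Both siRNA comparisons called 10 of these in the same direction, 2 higher and 8 lower, 55.6% and 66.7% of the calls, near the 60.2% and 65% of all genes. Rpa1, which encodes the large subunit of the protein that coats single-stranded DNA, fell with the siRNA by 0.68 (adjusted p = 1.7e-07) and 0.83 (adjusted p = 2.78e-08) in sgCTRL and sgBACH1 cells. Pold2, a subunit of DNA polymerase delta, fell by 0.41 (adjusted p = 8.07e-06) and 0.35 (adjusted p = 5.26e-05). Dbf4, the activator of the kinase that fires origins, was higher in knockout cells by 0.47 (adjusted p = 1.88e-07) and 0.35 (adjusted p = 9.48e-06) under siCTRL and siFEM1B. Pola2 and Fen1, both on chromosome 19, were higher in knockout cells under siCTRL by 0.42 (adjusted p = 5.81e-06) and 0.58 (adjusted p = 3.46e-05). With chromosome medians removed they were at -0.01 (adjusted p = 0.878) and 0.15 (adjusted p = 0.197).

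Of 56 other mitosis genes, 26 were called higher and 5 lower with the knockout under siCTRL, 18 and 12 under siFEM1B, 27 and 6 with the siRNA in sgCTRL cells and 16 and 9 in sgBACH1 cells. The shares called were 55.4, 53.6, 58.9 and 44.6%, against 50.5, 54.6, 45 and 41.7% of all genes, near that background in all but the siRNA comparison in sgCTRL cells. In that comparison, 51.5% of genes in the CPM range of the replication members and 55.7% in that of the mitosis members were called. The 58.9% was thus nearer to genes of such levels, and a CPM range matched to this list was not examined. Both siRNA comparisons called 16 of them in the same direction, 12 higher and 4 lower, 48.5% and 64% of the calls, against 60.2% and 65% for all genes. Incenp, the scaffold of the chromosomal passenger complex, was higher in knockout cells by 0.82 (adjusted p = 1.09e-09) and 0.61 (adjusted p = 8.99e-08), and by 0.39 (adjusted p = 2.47e-05) and 0.17 (adjusted p = 0.0218) with the median of its chromosome, 19, removed. Ndc80, a microtubule-binding kinetochore gene, was higher in knockout cells by 0.53 (adjusted p = 1.99e-06) and 0.51 (adjusted p = 3.26e-06). Cenpn, a centromere gene, fell with the siRNA by 0.71 (adjusted p = 1.42e-07) and 0.46 (adjusted p = 4.63e-05) in sgCTRL and sgBACH1 cells, while Ccnf, which encodes cyclin F, rose by 0.60 (adjusted p = 1.14e-06) and 0.41 (adjusted p = 0.000103).

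A further list held 36 cell cycle regulators, not all of which act at the step from G1 to S phase. Of these, 10 were called higher and 5 lower with the knockout under siCTRL, and 12 and 10 under siFEM1B. With the siRNA, 17 were called higher and 6 lower in sgCTRL cells, and 11 and 6 in sgBACH1 cells. The shares called were 41.7, 61.1, 63.9 and 47.2%, against 50.5, 54.6, 45 and 41.7% of all genes. Cdkn1b, which encodes the CDK inhibitor p27, was higher in knockout cells by 1.0 ± 0.07 (adjusted p = 1.38e-10) and 0.76 ± 0.07 (adjusted p = 7.58e-09). Cdc25b, a phosphatase that activates CDKs, was lower by 0.54 (adjusted p = 8.37e-08) and 0.62 (adjusted p = 9.97e-09). Fbxo5, an inhibitor of the anaphase-promoting complex, was higher by 0.80 (adjusted p = 3.78e-07) and 0.63 (adjusted p = 6.18e-06). With the siRNA, Ccnd3, a cyclin D gene, rose by 0.92 (adjusted p = 1.58e-08) and 0.73 (adjusted p = 4.3e-07) and E2f2 by 0.85 (adjusted p = 4.16e-08) and 0.70 (adjusted p = 5.93e-07) in sgCTRL and sgBACH1 cells. Cdkn1a, which encodes the CDK inhibitor p21, rose by 1.28 ± 0.11 in sgCTRL cells (adjusted p = 3.9e-08) and by 0.31 ± 0.12 in sgBACH1 cells (adjusted p = 0.0358). The second rise rests largely on 1 library. Cdkn1a was at 67.6, 71.5 and 68.9 CPM in sgBACH1_siCTRL and at 71.7, 111 and 75.7 in sgBACH1_siFEM1B. Ccnd1, another cyclin D gene, fell by 0.61 (adjusted p = 3.41e-07) and 0.50 (adjusted p = 5.17e-06).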

How the data were processed

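Stranded poly(A) mRNA libraries were made from 12 samples in 4 groups of 3, per the labels' protocols. The authors deposited raw whole-number counts for each gene symbol. Build mm10 and the tools featureCounts 1.6.4 (Subread), SAMtools 1.9 and DESeq2 1.26.0 are named, per the submitters' processing notes. Which annotation and strand setting were counted is not given in the sources used here. Both affect genes with overlapping exons or pseudogenes. No pair of replicates held identical counts.

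Genes were kept with filterByExpr at a minimum count of 10 and scaled by TMM, and CPM were computed from the deposited counts. The test was the two-sided quasi-likelihood test of edgeR 4.0.16 under R 4.3.3 (1 mean per group, 8 residual degrees of freedom, n = 3 per group). P-values were adjusted by Benjamini-Hochberg over 13281 genes. The standard error is the absolute log2 fold change over the square root of F. The script was tested on simulated data. Alternatives were DESeq2 1.42.0, RLE factors, no filter, fits of only the groups compared, a replicate block, chromosome medians removed as offsets, and each library left out in turn. The shares of genes called within the CPM range of each set were added after seeing the data. Exon lengths and gene positions are from GENCODE, and promoter windows from RefSeq, both on GRCm38, which mm10 denotes.

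The members, the further lists and the naming rule were chosen with earlier results of these data known. Library values are given, in each comparison, for up to 3 replication and 3 mitosis genes with the smallest p of those called, and for members called in opposite directions. Other members are named by fold change. Of each further list, genes named are among the 4 with the smallest p of those called in a comparison.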

Additional observations from a re-analysis of the deposited data

Results flagged for a closer look

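None of the 40 members had a called interaction, but 7 genes of the further lists did: the siRNA effect in sgBACH1 cells minus that in sgCTRL cells passed edgeR's test over all genes. These are 5.15% of the 136 further genes tested, against 6.08% of all genes, so their number is near that background. It was -0.51 for Tipin (adjusted p = 0.0201), a replication fork gene, and -0.65 for Knl1 (listed as Casc5, adjusted p = 0.0067) and 0.77 for Cenpm (adjusted p = 0.00532), both kinetochore or centromere genes. Among regulators it was -0.97 for Cdkn1a (adjusted p = 0.00188), 0.36 for Cdk4 (adjusted p = 0.0171), 0.31 for Cdkn2a (adjusted p = 0.0296) and 0.40 for Myc (adjusted p = 0.0165). The calls of Knl1, Cenpm and Cdkn1a held with each library left out in turn. Tipin was no longer called without sgCTRL_siCTRL replicate 2 or sgBACH1_siCTRL replicate 1 or sgBACH1_siFEM1B replicate 1 or 3 (adjusted p 0.0538, 0.0594, 0.064 and 0.0643). Myc was not called without sgCTRL_siCTRL replicate 3, sgBACH1_siCTRL replicate 1 or 3, or sgBACH1_siFEM1B replicate 1 or 3 (adjusted p up to 0.0624). Cdk4 was not called without sgBACH1_siCTRL replicate 1 or 3, sgCTRL_siFEM1B replicate 2, or sgBACH1_siFEM1B replicate 1 or 3 (adjusted p up to 0.0635). Cdkn2a was not called without any 1 of 8 libraries, sgCTRL_siCTRL replicates 2 and 3, sgBACH1_siCTRL replicates 1 and 3, sgCTRL_siFEM1B replicates 1 and 2 and sgBACH1_siFEM1B replicates 1 and 3 (adjusted p up to 0.106).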

How the results depend on the processing

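Called members kept their call under every alternative for 11 of 11 mitosis genes with the siRNA in sgCTRL cells, and for 8 of 12 in sgBACH1 cells, 8 of 14 with the knockout under siCTRL and 7 of 13 under siFEM1B. For replication genes these numbers were 2 of 4, 3 of 5, 4 of 5 and 4 of 7. The replication genes called with the knockout under siCTRL were 5, 10 with only the groups compared in the fit, 9 with chromosome medians removed and 5 to 9 with each library left out. Under siFEM1B they were 7, 4 with only the groups compared and 4 to 7 with each library left out, and for the siRNA in sgCTRL cells 4, and 2 to 5. Apart from the step on chromosome medians, the share of all genes called in these pairwise alternatives is not given here. The interaction, called for 0 replication genes, was called for 1 with DESeq2, RLE factors or no filter and for 0 to 1 with each library left out. For mitosis genes it was called for 3 under each of the first, 1 with chromosome medians removed and 0 to 4 with each library left out. Over all genes it was called for 807, for 1393 with no filter and for 298 to 1868 with each library left out, the highest without sgBACH1_siFEM1B replicate 2. With chromosome medians removed, the knockout effect on Kif11 under siFEM1B turned to -0.06 (adjusted p = 0.572) and that on Pola2 under siCTRL to -0.01 (adjusted p = 0.878). The cause of the other changes was not tested. Samples with the same replicate number did not deviate together (18 pairs, r from -0.11 to 0.08), and 2 of 12 libraries were closest to one of their own number. With the replicate block, the replication and mitosis genes called were 5 and 14, 6 and 13, 4 and 11, and 5 and 11 in the 4 pairwise comparisons. The median standard error in the 4 pairwise comparisons was 0.08 for replication and 0.07 for mitosis genes. Changes under about 0.2 on the log2 scale were called for some members and not for others.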
